A study of Rattus norvegicus with 9 samples.

Results

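The let-7 family of the rat retina, let-7 and miR-98 in every arm and copy listed, was followed through oxygen-induced retinopathy (OIR), which models the eye disease of premature infants: altered oxygen after birth halts the growth of retinal vessels, and abnormal vessels follow. The members are the mature miRNAs whose name starts with let-7 or is miR-98: 20 of the 465 listed, of which 9 are 5p arms and 11 are 3p arms. Small RNA from dissected retinas of wild-type Sprague Dawley rats was sequenced in 3 groups of 3 libraries: OIR animals at postnatal day 29 (OIR P29), OIR animals at day 14 (OIR P14) and sham control animals at day 14 (sham P14). All 3 groups share strain, genotype and tissue, and there is no sham group at P29, so age and the stage of the model change together between the OIR groups. Whether animals were pooled in a library is not stated in the labels, and p-values therefore reflect only how these libraries vary. Libraries are called by the number they carry in the deposited tables, which stands for no order.

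let-7 was found in Caenorhabditis elegans as a gene that times the passage from larval to adult cell fates, and its sequence is nearly the same from worms to mammals. The Dicer enzyme cuts each hairpin into a 5p and a 3p arm; in let-7 the 5p arm is the guide that Argonaute keeps, and the 3p arm is mostly lost. LIN28 proteins block let-7 processing in progenitor cells, and let-7 in turn represses Lin28, Hmga2, Ras and cell-cycle genes, so the family usually increases as tissues mature. In mouse retinal progenitors let-7, miR-125 and miR-9 act together in the passage from early to late cell fates.

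The mature 5p sequences are shown because they set what can be told apart by counting. Capitals mark the seed, bases 2 to 8, which pairs with target mRNAs. Sequences are from RefSeq (GRCr8), which held 19 of the 20 members; rno- stands for rat and is left out below.
rno-let-7a-5p: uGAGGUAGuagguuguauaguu
rno-let-7b-5p: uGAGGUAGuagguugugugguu
rno-let-7c-5p: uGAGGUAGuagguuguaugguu
rno-let-7d-5p: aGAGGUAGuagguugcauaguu
rno-let-7e-5p: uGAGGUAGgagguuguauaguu
rno-let-7f-5p: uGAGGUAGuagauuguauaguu
rno-let-7g-5p: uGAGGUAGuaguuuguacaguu
rno-let-7i-5p: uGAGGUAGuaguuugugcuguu
rno-miR-98-5p: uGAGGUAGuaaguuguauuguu
All 9 share 1 seed, and no other of the 693 mature names in that table has it. Outside the seed they differ from let-7a-5p, counted from 1 at its 5′ end, by A19G in let-7c, U9G in let-7e and G12A in let-7f. let-7b differs from let-7a by A17G and A19G, let-7d by U1A and U16C, let-7g by G12U and U18C, and miR-98 by G11A and A19U. let-7i is the most distant from let-7a, with G12U, A17G, U18C and A19U. In 4 of 36 pairs of 5p members the sequences differ at 1 base (let-7a with c, e and f, and let-7b with c), so a read with 1 wrong base could be counted under the other name; how such reads were assigned in counting is not stated.

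The 3p arms differ more between members, and 2 of them cannot be told apart. let-7c-2-3p and let-7a-1-3p come from different genes and have the same RefSeq sequence, while the 3p arm of let-7b, to which a result below refers, differs from both.
let-7a-1-3p: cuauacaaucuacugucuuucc
let-7c-2-3p: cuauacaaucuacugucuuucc
let-7b-3p: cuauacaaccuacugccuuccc
The first pair had identical counts in 8 of 9 libraries and differed by 1 count in the other, so they are 1 measurement listed under both names. let-7a-5p, let-7c-5p and let-7f-5p are each made from more than 1 gene copy with the same mature 5p sequence, so a 5p count there is a sum over copies. In the RefSeq annotation of GRCr8, within 100 kb, let-7c-1 neighbours miR-99a and miR-125b-2, let-7a-2 neighbours miR-100 and miR-125b-1, and let-7e neighbours miR-99b and miR-125a. let-7b lies beside let-7c-2. let-7a-1, let-7f-1 and let-7d lie together, and let-7f-2 and miR-98 both lie within Huwe1, a ubiquitin ligase gene.

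Depth was 13088233 to 13973950 counts per library in OIR P29, 12694068 to 15260603 in OIR P14 and 11808893 to 12568341 in sham P14. miR-182, a photoreceptor miRNA, took 60.4% ± 1.22 of the counts in OIR P29, 66.5% ± 1.53 in OIR P14 and 63.3% ± 0.894 in sham P14 (SD, n = 3 each), and the other retinal markers (miR-183-5p, miR-96-5p, miR-124-3p and miR-9a-5p) were above 0 in every library. The 9 let-7 and miR-98 5p arms together took 1.72% ± 0.0460 of the counts in OIR P29, 1.25% ± 0.175 in OIR P14 and 1.63% ± 0.202 in sham P14 (SD, n = 3 each). After TMM normalization over the 9 libraries, the family's 5p sum was 15801 to 16077 CPM (counts rescaled so that libraries of unequal depth compare) in OIR P29, 12581 to 14327 in OIR P14 and 14660 to 18208 in sham P14. The OIR P14 libraries thus had the lowest sums of the 3 groups, with no overlap. This sum was not tested, and in bulk tissue fewer cells of a type and less RNA per cell cannot be told apart. The 3p arms were 1.33% of all family counts in OIR P29, 1.57% in OIR P14 and 1.29% in sham P14.

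let-7f-5p was the most abundant member, with a mean over the 9 libraries of 5485 CPM. It made up 35.4% ± 0.401 of the family's 5p counts in OIR P29, 36.5% ± 2.12 in OIR P14 and 36.3% ± 0.733 in sham P14 (SD, n = 3 each). let-7a-5p followed with 3232 CPM, let-7g-5p with 2529, let-7c-5p with 1493 and let-7i-5p with 1097, and let-7e-5p, let-7d-5p, miR-98-5p and let-7b-5p lay between 445 and 268 CPM. All 9 are 22 bases long, so length does not set these levels apart. How evenly different sequences were captured and counted was not measured, so the order is one of counts. The order from let-7f down to let-7e was the same in each group. Neighbours in that order whose libraries overlapped were let-7a with let-7g, let-7e with let-7d and let-7d with miR-98 in OIR P14, miR-98 with let-7b in OIR P29, and miR-98 with let-7d and let-7d with let-7b in sham P14.

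**Figure D1:**
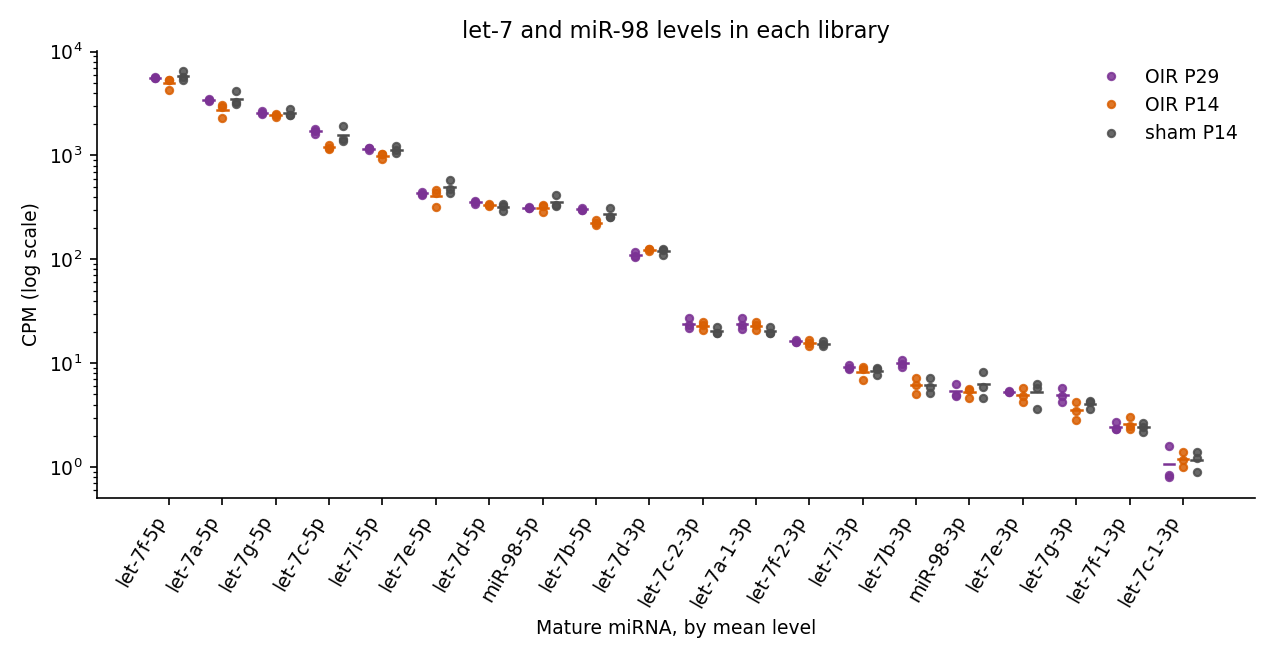
Level of each of the 20 members in CPM (log axis), 1 point per library with a bar at the group mean, and OIR P29, OIR P14 and sham P14 from left to right. let-7f-5p leads with a mean of 5485 CPM over the 9 libraries, the 5p arms end with let-7b-5p at 268 CPM, and let-7d-3p at 118 CPM stands above the other 3p arms.

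Of the 3p arms, let-7d-3p stood apart at 118 CPM, the only one above 100 CPM. The sequence listed as let-7c-2-3p and let-7a-1-3p was at 22.4 CPM and let-7f-2-3p at 15.7 CPM. The others lay between 8.64 CPM for let-7i-3p and 1.15 CPM for let-7c-1-3p, which had 11 to 23 counts per library. The lowest count of any member in any library was 11, so no member was at 0 anywhere.

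Whether retinopathy alters the family at P14 is asked by OIR P14 against sham P14. No member was called: 0 of 20 passed in the quasi-likelihood test of edgeR, Benjamini-Hochberg adjusted over 415 miRNAs, in which 1.69% of all tested miRNAs were called. By the same test 1 of the 20, let-7c-5p, had an unadjusted p under 0.05, as did 9.16% of all tested, and DESeq2 and limma-voom also called 0. A false discovery rate under 0.05 was held by 0 of 20 members in the authors' deposited table, where the lowest was 0.226. All 20 members passed the filter on low counts in both comparisons.

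let-7c-5p, made from the let-7c-1 and let-7c-2 genes, had 1156, 1255 and 1187 CPM in OIR P14 libraries 11, 12 and 38, against 1444, 1370 and 1905 CPM in sham P14 libraries 25, 27 and 51. All 3 OIR P14 libraries were lower than every sham library, and sham library 51 was well above the other 2. Its log2 fold was -0.37 ± 0.14 (SE), with an adjusted p of 0.399 in edgeR's quasi-likelihood test. let-7a-5p had 2918, 2289 and 3050 CPM in OIR P14, against 3259, 3150 and 4162 CPM in sham P14, a log2 fold of -0.33 ± 0.16 with an edgeR adjusted p of 0.565. Here too the groups did not overlap, by a narrow gap of 3050 against 3150 CPM, with library 12 lowest and library 51 highest. let-7b-5p had 213, 237 and 226 CPM in OIR P14, against 254, 255 and 315 CPM in sham P14, a log2 fold of -0.26 ± 0.12 with an edgeR adjusted p of 0.554. The groups were again apart, by a narrow gap. let-7i-5p had 1039, 1030 and 924 CPM in OIR P14, against 1142, 1048 and 1229 CPM in sham P14, a log2 fold of -0.17 ± 0.10 with an edgeR adjusted p of 0.588. Its groups were apart by the narrowest gap of these members, 1039 against 1048 CPM.

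These 4 members are the ones whose OIR P14 libraries all lay below the sham libraries, and 11.3% of all tested miRNAs did so; none of the 20 was apart in the other direction, beside 3.86% of all tested. For the other 5p arms the groups overlapped: the log2 folds were -0.26 ± 0.17 for let-7e, -0.20 ± 0.13 for let-7f, -0.17 ± 0.13 for miR-98, -0.05 ± 0.09 for let-7g and 0.07 ± 0.09 for let-7d (SE). In all, 8 of 9 5p folds were negative with a median of -0.20, beside 54.7% negative and 45.3% positive folds and a median of -0.03 over all tested miRNAs. Of the 3p folds 4 of 11 were negative, with a median of 0.04, counting the shared sequence under both of its names; the difference between the arms was not tested. Scaled by library totals alone, the median fold of all tested miRNAs moved by more than 0.1, from -0.03 to -0.21, and let-7d-5p and 5 of the 3p arms that were above 0 turned negative, which made 9 of 11 3p folds negative.

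**Figure D2:**
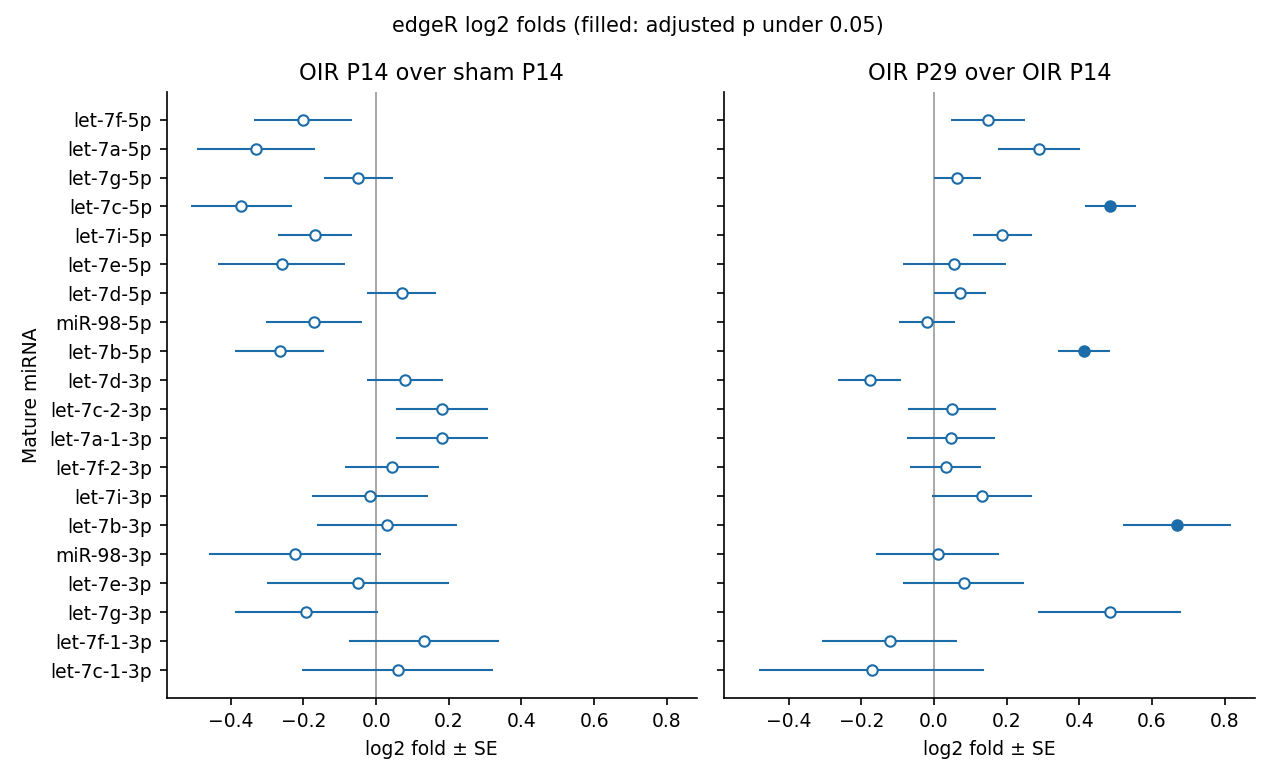
Log2 fold of each member with its standard error (bars) from edgeR, OIR P14 over sham P14 on the left and OIR P29 over OIR P14 on the right, with filled points for adjusted p under 0.05. At P14 the 5p folds run from -0.37 for let-7c to 0.07 for let-7d and no point is filled; between the OIR groups let-7c-5p, let-7b-5p and let-7b-3p are filled at 0.49, 0.41 and 0.67.

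The P14 folds of let-7a, let-7e and let-7f depended on OIR P14 library 12, and those of most 5p arms on sham library 51. In OIR P14 library 12, let-7e-5p, let-7a-5p and let-7f-5p were lower than the mean of libraries 11 and 38 by log2 differences of -0.48, -0.38 and -0.32, while the 6 other 5p arms were between 0.05 and 0.11 above it. Ranked from the lowest by this difference among 106 miRNAs of at least 100 CPM, let-7e, let-7a and let-7f had ranks 1, 3 and 4, and miR-100-5p at -0.40 and miR-99b-5p at -0.27 had ranks 2 and 5. let-7a, let-7e and let-7f are also the only mature names in the RefSeq table that share the last 8 bases of let-7a-5p, so miR-100-5p and miR-99b-5p do not share them. This length was not set in advance. Within it let-7c, let-7d, let-7g and miR-98, not low in library 12, differ from let-7a-5p only by A19G, U16C, U18C and A19U in turn. Whether this end bears on the counts in library 12 was not tested. In sham library 51 all 9 5p arms were above the mean of libraries 25 and 27, by 0.05 for let-7d to 0.44 for let-7c. Without library 51 the log2 folds were -0.19 for let-7c, -0.17 for let-7a and -0.13 for let-7b. Without library 12 they were -0.19 for let-7a, -0.10 for let-7e and -0.08 for let-7f, but -0.38 for let-7c and -0.28 for let-7b. Without sham library 27 they were -0.47 for let-7c, -0.41 for let-7a and -0.32 for let-7b. Without libraries 12 and 51, chosen after these values were seen, they were -0.20 for let-7c, -0.14 for let-7b and -0.03 for let-7a. Those of let-7e, let-7f and let-7g were then 0.05, 0.02 and 0.04.

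**Figure D3:**
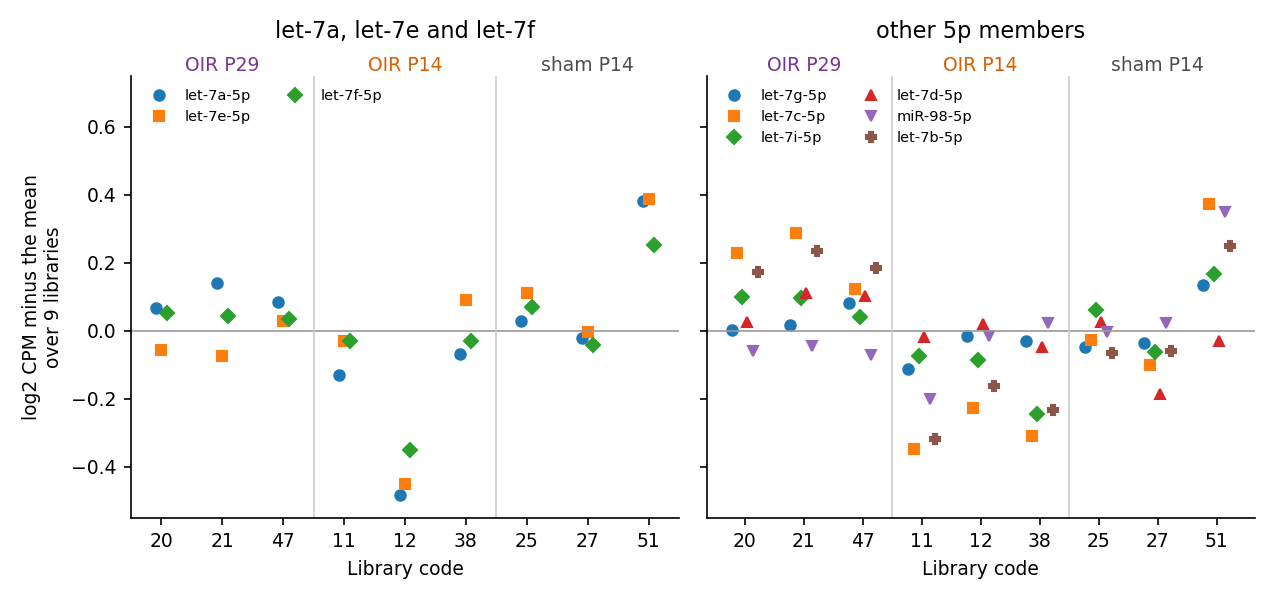
Log2 CPM of the 5p arms in each library minus each member's mean over the 9 libraries, for let-7a, let-7e and let-7f on the left and the other 6 on the right, with OIR P29, OIR P14 and sham P14 libraries from left to right. let-7a, let-7e and let-7f are low together in OIR P14 library 12, by -0.38, -0.48 and -0.32 against the other 2 libraries of the group, and most 5p arms are high in sham library 51.

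Between OIR P29 and OIR P14, the comparison of the later with the earlier stage of the model, let-7c and let-7b were higher at P29. Called were 3 of the 20 members, all higher, in edgeR's quasi-likelihood test adjusted over 424 miRNAs; 22.9% of all tested miRNAs were called higher and 23.8% lower, so the share called among members was below the background. let-7c-5p had 1722, 1794 and 1602 CPM in OIR P29 libraries 20, 21 and 47, against 1156, 1255 and 1187 CPM in OIR P14 libraries 11, 12 and 38. Every OIR P29 library was above every OIR P14 library by a clear gap. The rise was 1.40-fold, a log2 fold of 0.49 ± 0.07 (SE) with an edgeR adjusted p of 0.00150.

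let-7b-5p, whose sequence is 1 base from that of let-7c, had 299, 312 and 302 CPM in OIR P29, against 213, 237 and 226 CPM in OIR P14. The 2 groups were again far apart relative to their spread. It rose 1.33-fold, a log2 fold of 0.41 ± 0.07 with an edgeR adjusted p of 0.00282. let-7b-3p, the other arm of the let-7b hairpin, was counted 128, 156 and 150 times in OIR P29, against 66, 78 and 93 times in OIR P14, which is 9.27, 10.8 and 9.74 CPM in OIR P29 and 5.10, 6.11 and 7.26 CPM in OIR P14. The groups did not overlap at this low level. It rose 1.59-fold, a log2 fold of 0.67 ± 0.15 with an edgeR adjusted p of 0.00706. Both arms of let-7b therefore passed the test separately, and the 3p sequence has no identical copy among the 19 members with a RefSeq sequence. These 3 were called in all 13 alternatives, with log2 folds of 0.47 to 0.75 for let-7c-5p, 0.41 to 0.68 for let-7b-5p and 0.59 to 0.93 for let-7b-3p. They are also the 3 of 20 with a false discovery rate under 0.05 in the authors' deposited table, at 0.00488 for let-7b-5p, 0.00508 for let-7c-5p and 0.00663 for let-7b-3p.

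The remaining members did not pass; with the 3 called, 5 of 20 had an unadjusted p under 0.05, beside 55.4% of all tested. let-7a-5p had 3346, 3523 and 3391 CPM in OIR P29, against 2918, 2289 and 3050 CPM in OIR P14, a log2 fold of 0.29 ± 0.11 with an edgeR adjusted p of 0.0706. The groups did not overlap, and library 12 was the lowest. let-7i-5p had 1171, 1169 and 1126 CPM in OIR P29, against 1039, 1030 and 924 CPM in OIR P14, a log2 fold of 0.19 ± 0.08 with an edgeR adjusted p of 0.0931. let-7i-5p did pass in 5 of 13 alternatives, among them the fit with identical copies summed, where the edgeR adjusted p was 0.0236, and let-7a-5p passed in 2. let-7g-3p was counted 59, 70 and 89 times in OIR P29, against 37, 44 and 54 times in OIR P14, a log2 fold of 0.48 ± 0.20 with an edgeR adjusted p of 0.0775. let-7g-5p, its guide arm, had a log2 fold of 0.06 ± 0.07.

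let-7f-5p, the most abundant member, had 5654, 5624 and 5585 CPM in OIR P29, against 5347, 4283 and 5341 CPM in OIR P14, a log2 fold of 0.15 ± 0.10. The OIR P29 libraries lay within a narrow band, and above each OIR P14 library. miR-98-5p had 314, 317 and 311 CPM in OIR P29, against 284, 324 and 332 CPM in OIR P14, with a log2 fold of -0.02 ± 0.08, and the groups overlapped. let-7d-5p and let-7e-5p had log2 folds of 0.07 ± 0.07 and 0.06 ± 0.14. let-7d-3p was the one member with every OIR P29 library below every OIR P14 library, at a log2 fold of -0.18 ± 0.09 with an edgeR adjusted p of 0.124. Across the family 8 of 9 5p folds were positive, beside 48.6% of all tested, with a median of 0.15 against -0.01. Groups without overlap were seen for 9 of 20 members higher at P29, beside 30.2% of all tested, and for 1 lower, let-7d-3p, beside 27.1% (57.3% in either direction). The OIR P14 libraries serve in both comparisons, so a member low in them is lower at P14 and higher at P29 by the same 3 values; sham P14 and OIR P29 were not compared.

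The size of the P29 result depends on scaling: by library totals alone 9 of 20 members were called higher, and calls over all miRNAs split 148 higher to 53 lower, against 97 to 101 with TMM. Vessel wall and blood markers (9 of 9 listed, none at 0) summed to 3115 to 3260 CPM in OIR P29, 1483 to 1940 in OIR P14 and 2854 to 3143 in sham P14, lowest in OIR P14. Without overlap, the family's 5p sum, let-7a-5p, let-7b-5p, let-7c-5p and let-7i-5p were also lowest in OIR P14. For let-7i-5p the gap to sham P14 was narrow, 1039 against 1048 CPM at the nearest libraries. Of all tested miRNAs, 11.3% were lower without overlap at P14 and 30.2% higher at P29. The share that did both was not counted. Retina markers (5 of 5, miR-182 among them) went the other way, with 623877 to 654814 CPM in OIR P29 and 737057 to 900298 in OIR P14. In sham P14 they summed to 690585 to 751092 CPM, which overlapped OIR P14. Pigment epithelium markers (2 of 2) summed to 31154 to 35605 CPM in OIR P29, 18390 to 23989 in OIR P14 and 12362 to 19708 in sham P14. Lens and cornea markers (3 of 3) summed to 50.8 to 2020 CPM in OIR P29, 49.8 to 84.6 in OIR P14 and 43.3 to 168 in sham P14, with the highest value in a single library. Skeletal muscle had 1 of 3 markers listed, at 4.95 to 12.3 CPM. The part of these cells in the let-7 values was not tested.

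Both arms of a hairpin come from 1 precursor. Their ratio within a library does not depend on scaling, because the same factor applies to both counts. It could be taken for 6 hairpins with a single gene copy. let-7g had the largest 5p to 3p count ratio, 520 ± 62.0 in OIR P29, 694 ± 111 in OIR P14 and 622 ± 106 in sham P14 (SD, n = 3 each). let-7d had the smallest, 3.19 ± 0.139 in OIR P29, 2.69 ± 0.140 in OIR P14 and 2.70 ± 0.0920 in sham P14, so its 3p arm made up a larger share of the hairpin's counts than in the other 5 hairpins. Between these lay let-7i with a median over the 9 libraries of 125, let-7e with 81.2, miR-98 with 58.2 and let-7b with 34.8.

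**Figure D4:**
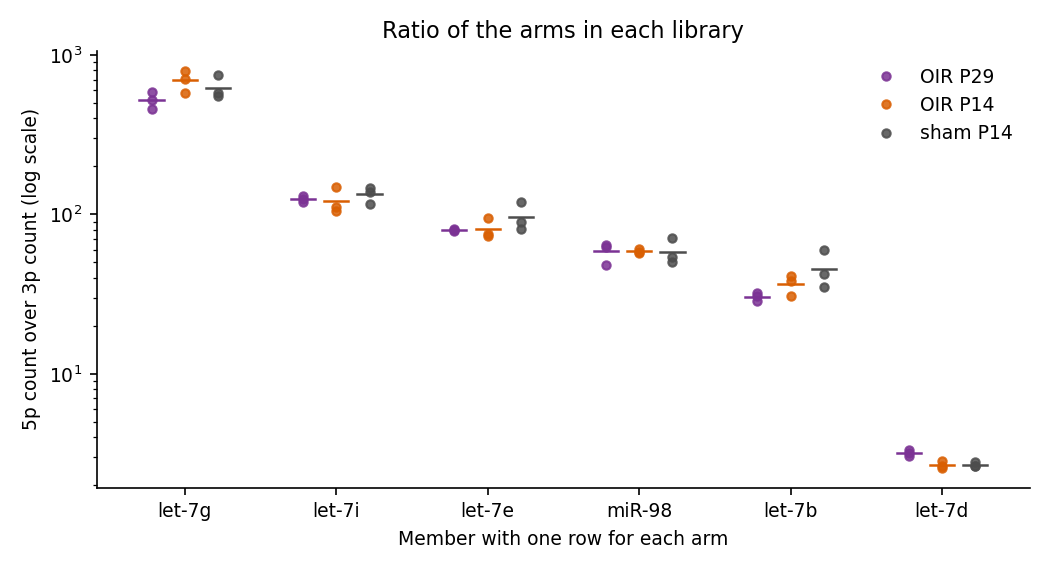
Ratio of 5p to 3p counts (log axis) for 6 hairpins, 1 point per library with a bar at the group mean, and OIR P29, OIR P14 and sham P14 from left to right. let-7d lies between 2.57 and 3.33 and let-7g at 458 or more in every library; for let-7d the OIR P29 libraries are above all OIR P14 libraries.

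None of the 6 ratios was called in either comparison by limma with adjustment over all hairpins, beside 0% of 122 at P14 and 15.2% of 125 between the OIR groups. At P14 none of the 6 had an unadjusted p under 0.05, as did 4.1% of all, and none had groups without overlap, beside 8.2%. Between OIR P29 and OIR P14, 1 of the 6 had such a p, beside 28.8% of all: let-7g, with a log2 ratio change of -0.41 ± 0.17 (SE) and a limma adjusted p of 0.165. let-7d had a change of 0.25 ± 0.11 with a limma adjusted p of 0.186. Its ratio was 3.05 to 3.33 in OIR P29, against 2.57 to 2.84 in OIR P14, and it was the only one of the 6 whose groups did not overlap, beside 33.6% of all hairpins. For let-7b, both of whose arms rose, the ratio was 30.5 ± 1.70 in OIR P29 and 36.7 ± 5.37 in OIR P14 (SD, n = 3 each), with overlapping libraries.

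The miRNAs that neighbour let-7 genes, with miR-9a, gave 12 tested arms. At P14 0 of 12 were called, beside 1.69% of all tested miRNAs. Between OIR P29 and OIR P14 8 of 12 were called, beside 46.7% of all tested: 4 were higher, beside 22.9%, and 4 lower, beside 23.8%. The called arms from beside let-7c-1 were all higher, counting miR-125b-5p, which is also made beside let-7a-2. Those from beside let-7e were both arms of miR-99b, which were lower, while neither arm of miR-125a passed. From the let-7c-1 cluster, miR-99a-3p had 17.6, 16.2 and 17.8 CPM in OIR P29, against 8.04, 10.3 and 6.56 CPM in OIR P14, a log2 fold of 1.02 ± 0.17 with an edgeR adjusted p of 0.00237. miR-125b-2-3p, the arm that belongs to this cluster alone, averaged 140 ± 4.35 CPM in OIR P29 and 95.9 ± 10.3 in OIR P14 (SD, n = 3 each). Its log2 fold was 0.52 ± 0.11 with an edgeR adjusted p of 0.00551. miR-99a-5p and miR-125b-5p, the second of which is made from both miR-125b genes, rose by log2 folds of 0.49 ± 0.14 and 0.48 ± 0.14, with edgeR adjusted p of 0.0215 and 0.0275. let-7c-1-3p, the arm that belongs to this let-7c copy alone, had a log2 fold of -0.17 ± 0.31 on 11 to 23 counts per library. let-7c-2-3p, the 3p arm of the other let-7c gene, shares its sequence with let-7a-1-3p. Its log2 fold was 0.05 ± 0.12 with an edgeR adjusted p of 0.782, on 268 to 418 counts per library in the OIR groups. Neither 3p arm of let-7c was thus called, unlike let-7c-5p.

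In the let-7e cluster, miR-99b-5p and miR-99b-3p fell by 0.35 ± 0.12 and 0.48 ± 0.11 on the log2 scale, with edgeR adjusted p of 0.0412 and 0.00947, while let-7e-5p had a fold of 0.06 ± 0.14 and miR-125a-5p one of 0.23 ± 0.11 that did not pass. OIR P29 and OIR P14 libraries overlapped for miR-99b-5p but not for miR-99b-3p. From the let-7a-2 cluster, miR-100-5p and miR-125b-1-3p did not pass, with log2 folds of 0.34 ± 0.22 and -0.10 ± 0.13. The other 2 called arms, both lower, belong to miR-9a. In sham library 51, where the let-7 5p arms were high, miR-99a-3p had 6.34 CPM, against 12.3 and 11.4 CPM in libraries 25 and 27, so this neighbour of let-7c-1 was lower there while let-7c-5p was higher.

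**Figure D5:**
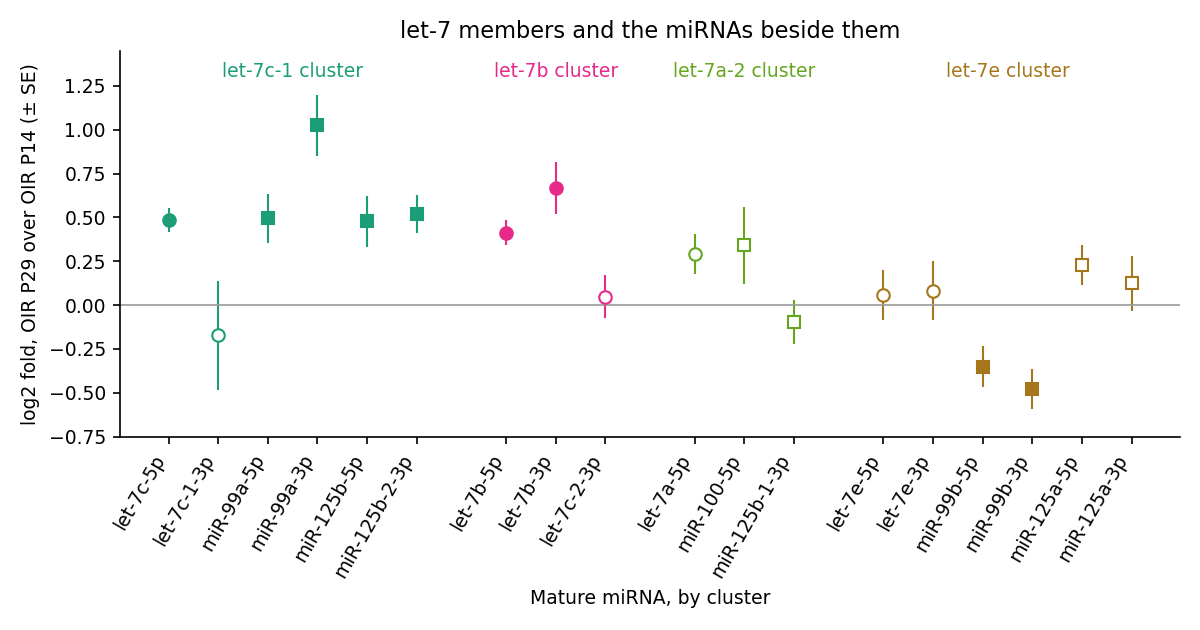
Log2 fold of OIR P29 over OIR P14 with its standard error (bars) for let-7 arms (circles) and the miRNAs beside their genes (squares), by cluster, with filled points for edgeR adjusted p under 0.05; let-7c-5p, let-7a-5p and miR-125b-5p are made from more than 1 gene and are drawn in 1 cluster each. Filled points of the let-7c-1 cluster lie above 0, with miR-99a-3p at 1.02, and those of the let-7e cluster, miR-99b-5p and miR-99b-3p, lie at -0.35 and -0.48.

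Among 96 other miRNAs with a mean of at least 100 CPM, those whose centred log2 CPM over the 9 libraries came nearest to the family's 5p sum were miR-30e-3p, miR-30a-3p, miR-136-3p, miR-486 and miR-21-5p, with root mean square differences of 0.0978, 0.112, 0.119, 0.129 and 0.143. miR-30e-3p, the nearest, had 374 ± 20.6 CPM in OIR P29, 350 ± 14.2 in OIR P14 and 371 ± 31.5 in sham P14 (SD, n = 3 each). A miRNA that varies little between libraries also gets a small difference. Nearness here therefore does not show a shared pattern, which was not tested.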

How the data were processed

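The authors deposited 2 tables of counts per mature miRNA, each with 6 libraries, with their own log2 folds, p-values and false discovery rates, per the file headers. Reads were 50 bp single-end, per the labels' protocols. Per the submitters' processing notes limma was used, in a version they leave unstated. Nothing used here names the trimming, aligner, counter, genome build or annotation. The deposited counts are whole numbers and were used as raw counts. The 12 columns hold 9 libraries, since those of OIR P14 are given in each table, with identical values for 1395 of 1395 counts. Columns are headed by codes, whose groups follow from the tables that hold them: codes in both are OIR P14, and the remaining codes of each table are sham P14 and OIR P29. Codes could not be tied to replicate numbers. Replicates differed by a chi-square per degree of freedom of 75.6 to 223, so none was counted as a copy of another.

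Each comparison was fitted on its own 6 libraries over the whole table with edgeR 4.0.16 in R 4.3.3: TMM, filterByExpr (minimum count 10, minimum total 15), quasi-likelihood F test, Benjamini-Hochberg adjustment and a threshold of 0.05 for calls. The filter kept 415 miRNAs at P14 and 424 between the OIR groups, leaving out 50 and 41. Median standard errors of the log2 fold were 0.165 and 0.151. Levels are CPM from TMM over 9 libraries. Arm ratios, log2 of (5p count + 1) over (3p count + 1), were tested with limma 3.58.1 where both arms had a mean count of at least 10. Alternatives were DESeq2 1.42.0, limma-voom, other scalings, no filter, all 9 libraries in 1 fit, identical copies summed, another pseudocount (0.5), a mean count of at least 100, and each library left out. The scripts were tested on simulated data. Named are all members, the 5 miRNAs of nearest pattern, and at most 6 called arms of cluster neighbours. The cluster neighbours named without passing, the miRNAs low in library 12 and the neighbour given for library 51 were chosen after their values were seen. The comparison of the last 8 bases was also not planned. Members, lists and tests were chosen with earlier results of these data known.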

Additional observations from a re-analysis of the deposited data

How the results depend on the processing

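No member was called at P14 in any of 14 alternatives, and let-7c-5p, let-7b-5p and let-7b-3p were called higher at P29 in all 13. Over all miRNAs, 7 were called at P14, but 12 with DESeq2, 1 to 7 with 1 library left out (1 without sham library 27 or 51) and 1 without libraries 12 and 51. Members called higher at P29 numbered 3, but 9 by library totals alone and 5 with all 9 libraries in 1 fit. The members that gained a call were let-7i-5p in 5 of 13 alternatives (totals alone, all 9 libraries, copies summed, without OIR P29 library 47, without OIR P14 library 11), let-7a-5p in 2 (totals alone, without OIR P14 library 38), let-7g-3p in 2 (totals alone, all 9 libraries), and let-7d-5p, let-7f-5p and let-7g-5p by totals alone. Arm ratios called over all hairpins between the OIR groups numbered 19, but 10 at a mean count of at least 100 and 6 to 18 with 1 library left out (6 without OIR P29 library 20 and 11 without library 21). By library totals alone, P14 log2 folds turned to -0.14 for let-7b-3p, -0.12 for let-7c-1-3p, -0.10 for let-7d-3p, -0.11 for let-7d-5p, -0.057 for let-7f-1-3p and -0.13 for let-7f-2-3p. P29 folds turned to 0.10 for let-7c-1-3p, 0.091 for let-7d-3p, 0.16 for let-7f-1-3p and 0.24 for miR-98-5p. Without libraries 12 and 51, P14 folds turned to -0.029 for let-7b-3p, 0.26 for let-7e-3p, 0.046 for let-7e-5p, 0.024 for let-7f-5p, 0.039 for let-7g-5p and 0.044 for miR-98-3p. The P14 fold of let-7i-3p was 0.0045 with DESeq2 and 0.0025 with its size factors, and the P29 fold of miR-98-5p was 0.027 with all 9 libraries and 0.026 with copies summed. Leaving out 1 library gave P14 ranges of -0.11 to 0.16 for let-7b-3p, -0.11 to 0.20 for let-7c-1-3p, -0.27 to 0.13 for let-7e-3p, -0.012 to 0.11 for let-7f-2-3p, -0.084 to 0.033 for let-7g-5p, -0.081 to 0.10 for let-7i-3p and -0.41 to 0.048 for miR-98-3p. It gave P29 ranges of -0.51 to 0.037 for let-7c-1-3p, -0.068 to 0.16 for let-7e-5p, -0.20 to 0.041 for let-7f-1-3p, -0.076 to 0.12 for miR-98-3p and -0.040 to 0.041 for miR-98-5p. Arm ratio changes ranged from -0.047 to 0.026 for let-7d and -0.078 to 0.17 for miR-98 at P14, and from -0.085 to 0.10 for let-7e, -0.046 to 0.21 for let-7i and -0.093 to 0.12 for miR-98 between the OIR groups. The cause was not tested. No paired analysis was possible because the columns carry library codes and no replicate numbers. With 3 libraries a group and median standard errors of 0.165 and 0.151, the P14 folds did not pass, which does not show that the groups are alike; members with few counts, such as let-7c-1-3p, have wider errors.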
